A study of Rattus norvegicus with 14 samples.

Results

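Gene expression in the rat epididymis was compared between day 18 and day 7 after birth, across all genes of a microarray. The comparison rests on 7 of the 14 pools of the series: 4 pools of whole epididymides of 18-day-old Sprague-Dawley rats and 3 pools from 7-day-old rats. The other 7 pools were from days 28 and 60 and are used only for the shared estimate of spread and for later levels of named genes. No animal carried an allele or received a treatment that the labels mention, and the pups of both ages were kept with their mothers. Sample titles speak of epididymal cells, whereas the design text describes RNA of pooled whole organs. How many animals formed a pool, and whether all parts of the organ entered it equally, is not given in the sources used here, so the p-values measure the spread between pools. Each pool was read on 1 RatGene 2.0 ST array, and values are log2 signals, on which a difference of 1 is a 2-fold change. One transcript cluster with a single symbol was taken per gene, which left 18166 genes.

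The epididymis is the coiled duct in which sperm mature after they leave the testis. It forms from the Wolffian duct, and in the weeks after birth its epithelium, at first a simple layer of undifferentiated columnar cells, gives rise to principal, narrow, clear and basal cells, while the loose mesenchyme around it becomes a muscular and fibrous wall. Principal cells secrete most of the luminal proteins, and narrow and clear cells acidify the lumen with a vacuolar proton pump. Whole organs were measured and all arrays were put on a shared scale, so signals are relative to the RNA of the organ. A lower signal can come from a smaller share of cells of a type, even at an unchanged number, or from less RNA per cell. These cannot be told apart here.

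The label of the tissue was checked against epithelial markers. Pax2, Pax8 and Emx2, transcription factors of the Wolffian duct and its derivatives, had mean log2 signals of 9.01, 9.97 and 9.13 at day 7 and 9.66, 10.48 and 9.68 at day 18. The background level was set at 4.92, the 95th percentile of 1343 olfactory and vomeronasal receptor genes. The summed signal of 16 epididymal epithelium genes was 2420 to 2653 at day 7 and 9746 to 11605 at day 18, and of these Lcn9, Adam28, Cst8 and Cst11 lay at or under background in all 7 pools. Of 22 germ cell genes of the stages before meiosis ends, 14 lay at or under that level in all 7 pools, among them Ddx4, Dazl and Sycp1. The summed germ cell signal was 1924 to 2312 at day 7 and 1244 to 1290 at day 18, and 5 of the genes were called higher and 1 lower, Uchl1 (-1.76), which is also a nerve gene. Of 17 genes of testis somatic cells 1 was called higher (Cyp11a1) and 1 lower (Lhcgr). No pool stood apart: across genes, pools of 1 age correlated at 0.993 to 0.995 and pools of different ages at 0.962 to 0.968.

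Of the 18166 genes, 3167 were higher at day 18 (17.4%) and 3762 were lower (20.7%), 38.1% in all, at an adjusted p under 0.05 in limma's moderated test. The log2 signals of the day 7 and day 18 pools did not overlap for 8200 genes (45.1%). Most of the differences were modest: the median called rise was 0.52 and the median called fall was -0.54 on the log2 scale. The tails were not alike in size. At 2-fold or more, 513 genes were higher (2.82%) and 557 lower (3.07%), whereas at 4-fold or more 125 were higher and 36 lower, at 8-fold or more 53 and 8, and at 16-fold or more 21 and 0. The largest rises were thus larger than the largest falls.

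**Figure D1:**
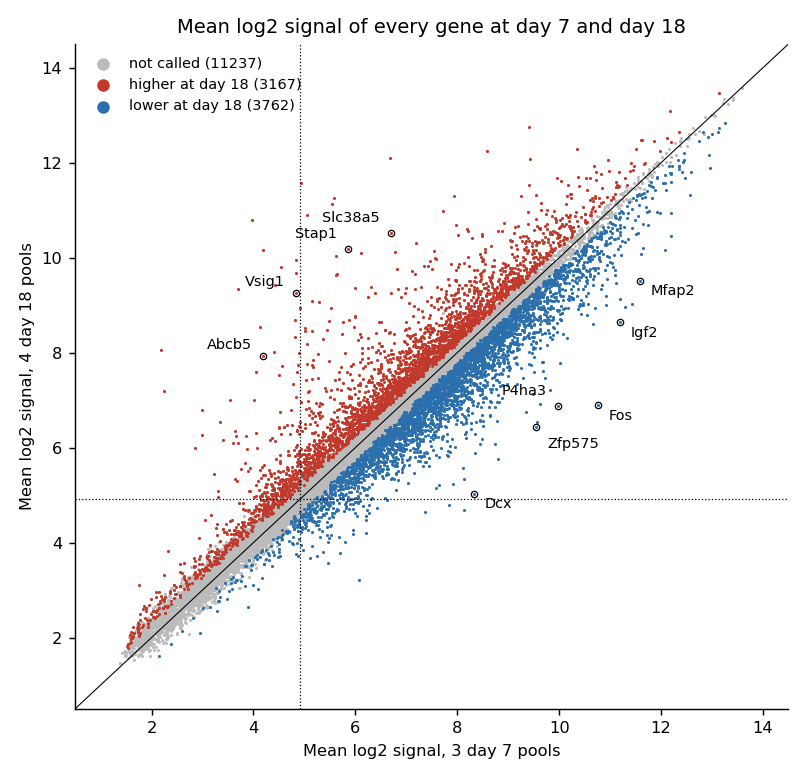
Mean log2 signal of each of the 18166 genes in the 3 day 7 pools (horizontal axis) and the 4 day 18 pools (vertical axis), coloured by call, with the background level of 4.92 as dotted lines and named genes circled. The points above the diagonal reach farther from it than those below it, where the largest fall is that of Fos.

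Genes that came up from background were counted by a rule that every day 7 pool lay at or under 4.92 and every day 18 pool above it. The count was 130 genes, of which 124 were called and 62 rose at least 2-fold. This rule and its reverse keep the pools of the 2 ages apart, so the numbers called follow largely from the rules. The reverse path, from above background in every day 7 pool to at or under it in every day 18 pool, was taken by 69 genes, of which 68 were called and 26 fell at least 2-fold. Beside secretory genes, the largest of the first kind were Atp6v0d2, a subunit of the proton pump, Abcb5, an ABC transporter, and Hepacam2, an immunoglobulin-type membrane protein. The largest of the second kind were Smr3a, Slc22a2, Gabrg3, H2bcl1, Lrrc19, Marchf11, Afm, Ildr2, Mab21l4 and H1f6.

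Faint genes moved slightly upwards as a class, which bears on how small rises near background can be read. Among 4190 genes at or under background in all 7 pools, 308 were called higher and 84 lower, with a median log2 difference of 0.078, against -0.039 for the 12078 genes above background in all 7. The receptor genes themselves gave 108 higher and 14 lower with a median of 0.09, and 54 higher and 45 lower after quantile normalization. Of 363 microRNA precursor genes, 256 lay at or under background in all 7 pools, 44 were called higher and 14 lower, and their median of 0.092 was close to that of the receptor genes, so they are not described one by one. The 18519 clusters that stood for no gene (several symbols, none, or a second cluster of a gene) were called in 14.8% of cases, 1416 higher and 1317 lower.

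Genes outside the secretory and defensin families were also among the 25 largest rises. Vsig1, an immunoglobulin-type junction protein of stomach and testis epithelium, had log2 signals of 4.78, 4.62 and 5.07 in the day 7 pools and 9.19, 9.26, 9.22 and 9.35 in the day 18 pools. The day 18 pools were all far above the day 7 pools and close to each other. The rise was 4.43 ± 0.10 (log2 difference ± SE, adjusted p = 5.1e-13, 21.5-fold), from a day 7 mean just under background. Stap1, an adaptor protein of immune receptor signalling, had signals of 5.41, 5.99 and 6.18 in the day 7 pools and 10.24, 10.17, 10.13 and 10.20 in the day 18 pools. Its groups did not overlap, the day 7 pools were more scattered than the day 18 pools, and it rose by 4.32 ± 0.13 (adjusted p = 7.24e-12). Ces1e, a carboxylesterase, rose by 4.42 ± 0.19 and Gpr82, an orphan receptor, by 3.88 ± 0.20. At days 28 and 60 the means of Gpr82 were 10.39 and 10.85, above its day 18 mean of 8.69, while those of Vsig1 were 8.73 and 8.71, below its day 18 mean of 9.25.

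**Figure D2:**
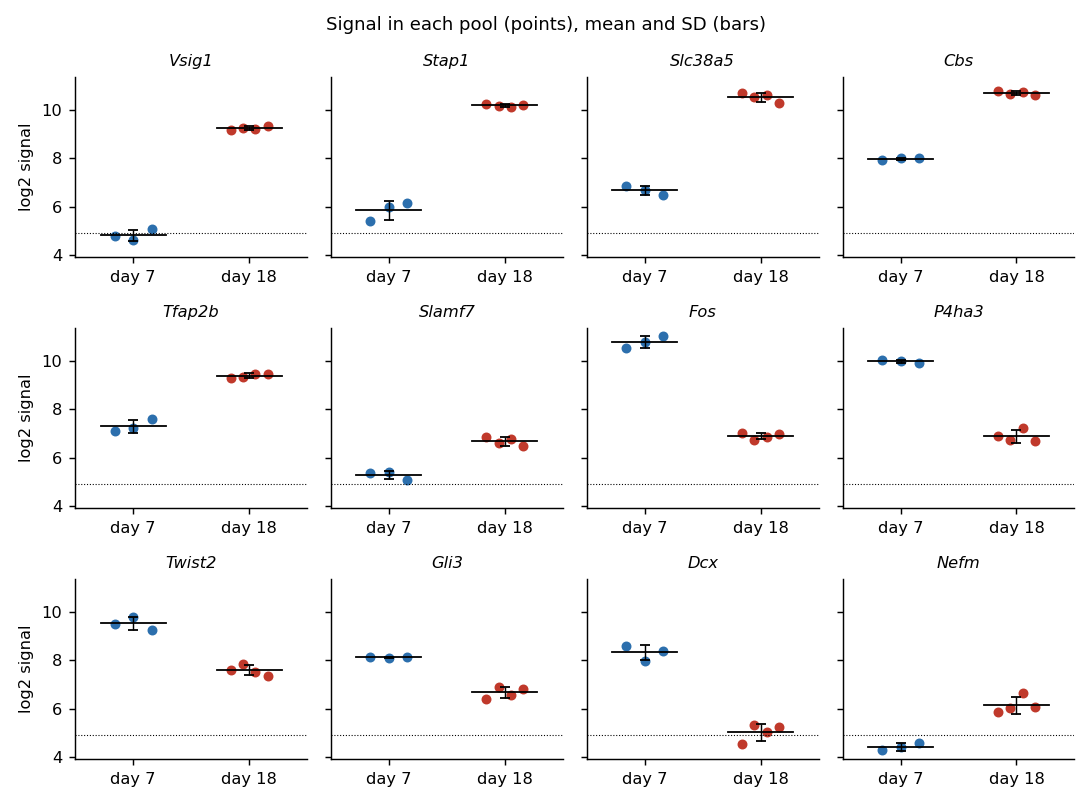
Log2 signal of 12 genes in each day 7 pool (3 points) and each day 18 pool (4 points), with the mean and SD; the dotted line is the background level of 4.92. For all 12 genes the pools of the 2 ages are separated, with Vsig1, Stap1, Slc38a5, Cbs, Tfap2b, Slamf7 and Nefm higher and Fos, P4ha3, Twist2, Gli3 and Dcx lower at day 18.

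Genes of columnar epithelial structure were mostly higher at day 18. Of 37 measured, 28 rose and 5 fell, with a median log2 difference of 0.55 against 0.01 over all genes. Espn, an actin-bundling protein of microvilli and stereocilia, had signals of 6.96, 6.90 and 7.05 in the day 7 pools and 9.23, 9.14, 9.51 and 9.14 in the day 18 pools, with no overlap, and rose by 2.28 ± 0.095 (adjusted p = 1.87e-10). Pdzk1, an apical scaffold, rose by 1.56 ± 0.16, Cldn4, a claudin, by 1.14 ± 0.12, and Cdh1, the epithelial cadherin, by 0.54 ± 0.073. The 5 that fell were Cdhr5 (-1.24), Vil1 (-1.14), Krt7 (-0.89), Jup (-0.38) and Evpl (-0.36), of which Cdhr5 and Vil1 are brush border proteins. The call of Evpl was lost without day 7 replicate 2 or 3 or day 18 replicate 2 or 3 (limma, adjusted p from 0.0522 to 0.0898). The summed signal of the list was 14356 to 16447 at day 7 and 22385 to 23929 at day 18.

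Transcription factors known from epithelia rose more often than they fell. Of 39 measured, 17 rose (43.6%) and 7 fell (17.9%), with a median difference of 0.10. Over all genes 17.4% rose and 20.7% fell. Tfap2b, of the AP-2 family, had signals of 7.09, 7.22 and 7.58 in the day 7 pools and 9.30, 9.34, 9.46 and 9.47 in the day 18 pools, all day 18 pools above all day 7 pools, and rose by 2.09 ± 0.10. Elf5, of the ETS family, rose by 1.91 ± 0.18 from a mean of 4.51, which is under background. Vdr, the vitamin D receptor, rose by 1.64 ± 0.10, Ehf by 1.43 ± 0.082 and Elf3 by 1.22 ± 0.096. The mean of Vdr was 6.95 at day 18 and 6.09 and 6.09 at days 28 and 60, whereas that of Tfap2b was 9.39, 10.36 and 10.32. Lhx1, a factor of the early Wolffian duct, had the largest fall of the list: its signals were 7.80, 7.10 and 7.65 in the day 7 pools and 6.34, 6.19, 6.03 and 6.47 in the day 18 pools, without overlap, and it fell by 1.26 ± 0.17.

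Subunits of the vacuolar proton pump rose broadly. Of 19 measured in a list without Atp6v0d2, 14 rose and 0 fell, with a median of 0.53; at an unadjusted p under 0.05, the test gave 0 lower. The rises were of 2 sizes. Atp6v1b1 and Atp6v0a4, isoforms of specialised proton-secreting cells, rose by 3.41 ± 0.12 and 3.19 ± 0.11, and Atp6v1g3, another restricted isoform, by 1.63 ± 0.13. The widely used subunits that rose, such as Atp6v1a (0.67), Atp6v0b (0.69) and Atp6v1h (0.63), did so by less than 1. For Atp6v1a the pools read 8.90, 8.84 and 9.12 in the day 7 pools and 9.55, 9.65, 9.67 and 9.65 in the day 18 pools, a small difference with no overlap. Of 33 lysosomal genes, 17 rose and 2 fell, led by the glycosidases Manba (1.51 ± 0.10) and Glb1 (1.36 ± 0.079) and the cholesterol carrier Npc2 (1.24 ± 0.069); Arsb (-0.60) and Lipa (-0.46) were lower.

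Enzymes that start mucin-type O-glycans, the Galnt family and their partners, gave 11 of 18 higher and 3 lower with a median of 0.33. Galnt9 stood out, with signals of 5.78, 5.90 and 6.28 in the day 7 pools and 9.64, 9.30, 9.32 and 9.18 in the day 18 pools and a rise of 3.38 ± 0.17, while the next largest rise was Galnt18 at 0.95. Galnt16 (-1.50) and Galnt13 (-1.43) fell. Their means at day 18 were 6.88 and 5.33.

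Membrane transport families moved to different degrees. Of 46 ABC transporters, 14 rose (30.4%) and 3 fell (6.52%), and of 11 aquaporins 4 rose and 1 fell. Of 330 solute carriers, 76 rose and 56 fell, a median of 0.03. Slc38a5, a glutamine and amino acid transporter, led the rises with signals of 6.88, 6.69 and 6.50 in the day 7 pools and 10.70, 10.52, 10.62 and 10.28 in the day 18 pools; the groups did not overlap and the rise was 3.84 ± 0.11 (adjusted p = 5.78e-12), followed by means of 11.56 at day 28 and 11.97 at day 60. Slc7a11, the cystine carrier, rose by 2.75 ± 0.13 from a mean of 3.41, under background, Slc2a9, a urate and sugar transporter, by 2.66 ± 0.11, Slc17a9, a vesicular nucleotide transporter, by 2.17 ± 0.15, and the zinc transporter Slc30a2 by 1.98 ± 0.093. Slc22a2, an organic cation transporter, had the largest fall, with signals of 7.86, 7.21 and 7.01 in the day 7 pools and 4.36, 4.68, 4.66 and 4.90 in the day 18 pools. Every day 18 pool lay at or under background, and it fell by 2.71 ± 0.20.

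Ion channel genes were counted by symbol. Of 87 potassium channel genes, 21 rose (24.1%) and 16 fell (18.4%), near the 17.4% and 20.7% of all genes, with the epithelial pair Kcnq1 (1.29 ± 0.098) and Kcne3 (1.57 ± 0.077) among the rises and Kcnip4, a regulatory subunit of neuronal and cardiac channels, at -3.04 among the falls. Of 24 genes named as calcium channel subunits, 0 rose and 11 fell in limma's test, with a median of -0.18; at an unadjusted p under 0.05, 1 was higher. The largest of these falls were Cacnb2 (-0.94), Cacna1g (-0.93) and Cacng7 (-0.93), and Cacna1c, the main channel of smooth muscle, fell by 0.66 ± 0.14.

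Lipid synthesis genes mostly rose. Of 30 genes of fatty acid and triglyceride synthesis, 17 rose and 5 fell, with a median of 0.38. Scd, stearoyl-CoA desaturase, had signals of 6.46, 6.29 and 6.41 in the day 7 pools and 8.82, 9.24, 9.44 and 9.50 in the day 18 pools, without overlap, and rose by 2.86 ± 0.15 (adjusted p = 1.81e-09). Acss2, which makes acetyl-CoA from acetate, read 6.69, 6.65 and 6.78 in the day 7 pools and 9.29, 9.17, 9.41 and 9.16 in the day 18 pools and rose by 2.55 ± 0.077. Both went on to higher means, Scd to 11.28 and 11.40 and Acss2 to 10.24 and 10.34 at days 28 and 60. Acsl4 and Acsl1, acyl-CoA synthetases, rose by 2.47 ± 0.093 and 1.69 ± 0.13, and Elovl6, an elongase, by 1.33 ± 0.079. Elovl7 (-1.70), Lpin2 (-0.71), Agpat2 (-0.50), Hsd17b12 (-0.40) and Tecr (-0.31) fell. Adipocyte genes moved in the same direction and are given further on with their sums; their part in the rise of lipid synthesis genes was not tested.

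Of 19 cholesterol synthesis genes, 13 rose and 1, Dhcr7, fell (-0.51), with a median of 0.36. Idi1, an isomerase of the isoprenoid steps, rose by 1.46 ± 0.085, Ebp and Tm7sf2, of the late sterol steps, by 1.36 ± 0.090 and 1.24 ± 0.10, and Msmo1, a sterol oxidase, by 0.79 ± 0.093. Promoters of this pathway are shown because many hold the CCAAT box, the binding sequence of the factor NF-Y: 12 of the 15 with a RefSeq promoter in build GRCr8 (250 bases before to 50 after the start) had CCAAT on either strand, against 37.97% of 14503 genes. The sense-strand promoter of Msmo1, chr16:29746863-29747162 on the plus strand, has it at -173, -109 and -68 from the start, in capitals.
Msmo1: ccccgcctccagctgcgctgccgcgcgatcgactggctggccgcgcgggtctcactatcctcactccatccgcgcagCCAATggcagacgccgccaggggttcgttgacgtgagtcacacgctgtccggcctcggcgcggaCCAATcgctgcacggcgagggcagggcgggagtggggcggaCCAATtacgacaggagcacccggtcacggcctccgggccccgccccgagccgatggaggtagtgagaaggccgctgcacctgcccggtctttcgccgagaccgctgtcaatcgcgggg
A match describes the letters and is not a measurement of binding.

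Among the lists of energy metabolism, glycolysis had the larger share of rises. Of 18 glycolysis genes, 9 rose and 3 fell, with a median of 0.22. Aldoc, an aldolase isoform, had signals of 7.91, 7.92 and 8.20 in the day 7 pools and 10.44, 10.45, 10.44 and 10.56 in the day 18 pools with no overlap and rose by 2.47 ± 0.084, and Hk2, a hexokinase, rose by 1.45 ± 0.12. The lactate carriers Slc16a1 and Slc16a3 rose by 1.34 ± 0.12 and 1.003 ± 0.13. In the tricarboxylic acid cycle 5 of 24 rose and 3 fell, in complex I of the respiratory chain 9 of 39 and 6, and in complexes III to V 12 of 47 and 7, shares close to those of all genes. The single large change in the chain was Cox6b2, an isoform of a cytochrome oxidase subunit known from testis: its signals were 9.78, 9.85 and 9.86 in the day 7 pools and 7.14, 7.32, 7.24 and 7.18 in the day 18 pools, the groups lay apart, and it fell by 2.61 ± 0.10.

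Of amino acid metabolism, 3 enzymes are named after their values were seen, and no list was counted. Cbs and Cth, the enzymes of transsulfuration that turn homocysteine into cysteine, rose by 2.72 ± 0.081 and 2.18 ± 0.10. The signals of Cbs were 7.93, 8.01 and 8.01 in the day 7 pools and 10.77, 10.66, 10.76 and 10.60 in the day 18 pools, with no overlap and little scatter. Its later means were 10.71 and 10.60, whereas those of Cth were 10.24 and 10.49, above its day 18 mean of 8.65. Gldc, of glycine cleavage, rose by 2.36 ± 0.13.

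Immune cell lists differed in their counts. Of 22 B lymphocyte and plasma cell genes 3 rose (13.6%) and 1 fell, and of 19 mast cell genes 2 (10.5%) and 3. Of 19 neutrophil genes 3 rose (15.8%), against 17.4% of all genes. In these lists 8, 9 and 11 genes, in that order, lay at or under background in all 7 pools. Of 20 natural killer cell genes, 16 rose and 0 fell, with a median of 0.54; 0 were lower at an unadjusted p under 0.05. Slamf7, a receptor of natural killer and plasma cells, had signals of 5.36, 5.42 and 5.10 in the day 7 pools and 6.85, 6.59, 6.79 and 6.48 in the day 18 pools, with no overlap, and rose by 1.38 ± 0.13, with a mean of 8.42 at day 60. Prf1, perforin, read 6.43, 6.42 and 6.44 in the day 7 pools and 7.53, 7.43, 7.28 and 7.17 in the day 18 pools and rose by 0.92 ± 0.14. Signals of the list were low throughout: 3 members (Gzmb, Klrb1 and Klri2) lay at or under background in all 7 pools, and the summed signal was 1210 to 1330 at day 7 and 1638 to 1871 at day 18. Several of these genes are shared with cytotoxic T cells.

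Class I and II antigen genes, named RT1 in the rat, gave 17 of 39 higher and 1 lower, with a median of 0.46. They resemble each other closely, and signal shared between them was not separated. The class I gene RT1-CE5 had signals of 5.37, 5.28 and 5.13 in the day 7 pools and 6.66, 6.49, 7.19 and 6.57 in the day 18 pools and rose by 1.47 ± 0.18. Interferon-stimulated genes gave 20 of 39 higher and 4 lower, with a median of 0.34 and 0 changes of 2-fold. Psmb8, of the immunoproteasome, rose by 0.93 ± 0.073, Cxcl9, a chemokine, by 0.77 ± 0.15 and Isg15 by 0.66 ± 0.14. Ifit2 (-0.66), Mx2 (-0.62), Igtp (-0.46) and Irf7 (-0.41), also interferon targets, fell, so the list did not move as one. Mx2, whose pools overlapped, was not called without day 7 replicate 1 (limma, adjusted p = 0.0745), nor was Irf7 without day 7 replicate 2 or 3 or day 18 replicate 4 (0.0517 to 0.0643).

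Of 20 dendritic cell genes, 8 rose (40%) and 2 fell (10%), against 17.4% and 20.7% of all genes. Xcr1, a receptor of cross-presenting dendritic cells, rose by 0.98 ± 0.11 and Itgax, an integrin, by 0.85 ± 0.082. Of 22 macrophage genes, 1 rose (Mertk, 0.26), 6 fell (27.3%) and 15 were not called, with a median of -0.04. Among genes above background in at least 1 of the 7 pools 26.3% fell, so the share of macrophage falls was near that of such genes. Without day 7 replicate 2 or day 18 replicate 3 or 4, Mertk was not called (limma, adjusted p from 0.0906 to 0.182), nor was it when the 7 pools of days 7 and 18 were fitted alone (0.0629), over every transcript cluster (0.0665) or with arrays centred on the median of all clusters (0.138). Lyve1 (-1.02), Mrc1 (-0.77) and Folr2 (-0.56), markers of resident tissue macrophages, were among the falls, and Lyve1 is also a lymphatic gene. Summed macrophage signal was 5252 to 5428 at day 7 and 4257 to 4925 at day 18, and Timd4 and Vsig4 lay at or under background in all 7 pools.

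Chemokines and their receptors gave 11 of 46 higher (23.9%) and 9 lower (19.6%), near the 17.4% and 20.7% of all genes. Among the rises were lymphocyte receptors, Cxcr6 (1.17 ± 0.22), Ccr6 (0.90 ± 0.21) and Cxcr3 (0.68 ± 0.12), and Xcl1 (1.04 ± 0.12), the ligand of Xcr1. The falls were led by Cxcl13, a chemokine of B cell zones and stroma, with signals of 7.78, 8.37 and 8.27 in the day 7 pools and 4.98, 5.70, 5.24 and 5.41 in the day 18 pools, no overlap; it fell by 2.81 ± 0.21. The inflammatory chemokines Cxcl1 (-1.35), Ccl3 (-1.34), Ccl2 (-1.08), Ccl7 (-0.96) and Cxcl2 (-0.95) fell as well. Among cytokines Il1a rose by 2.39 ± 0.14 from a day 7 mean of 3.86, under background, and Il33 (-1.57) and Il10 (-1.56) fell.

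**Figure D3:**
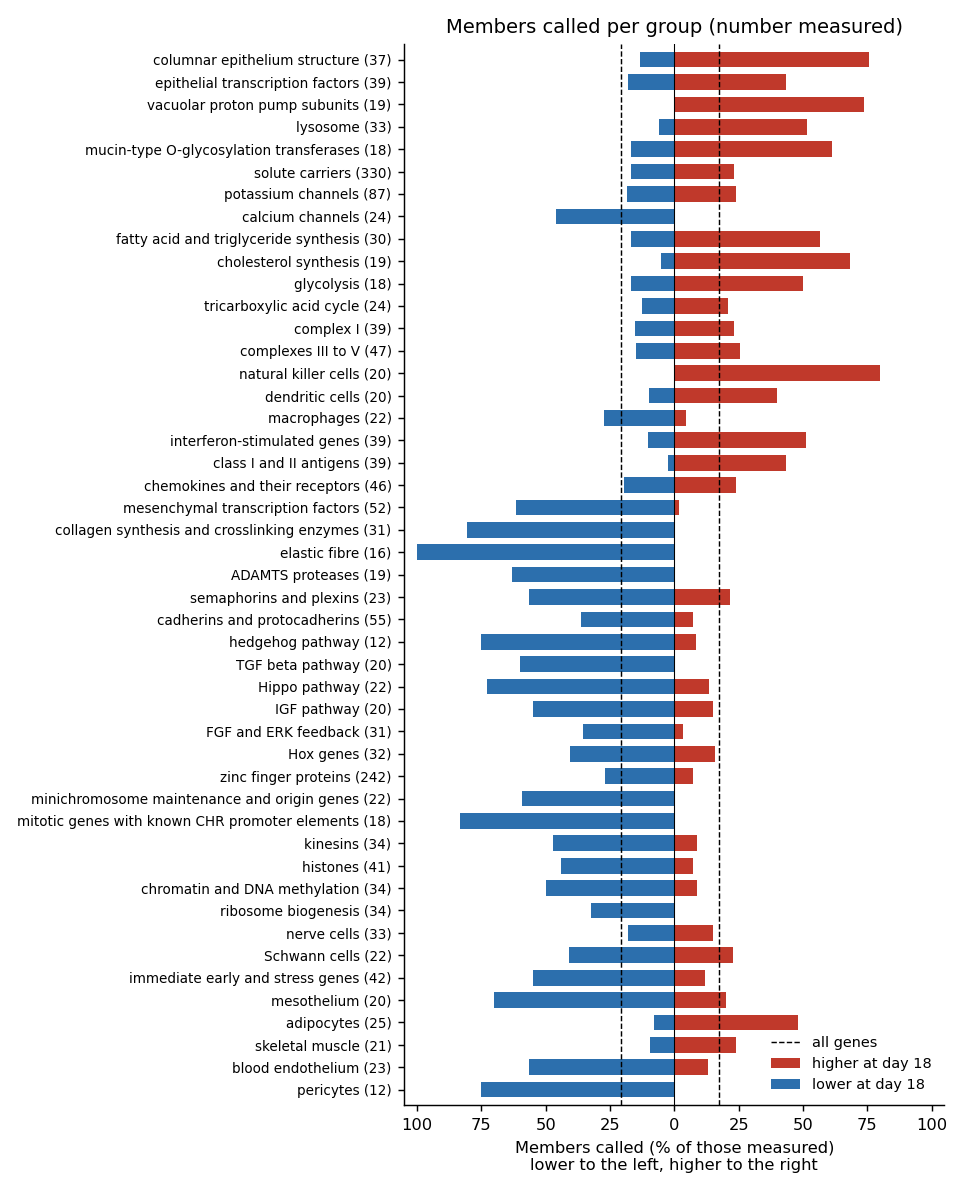
Share of measured members of each gene group called higher (right, red) or lower (left, blue) at day 18, with the number measured in brackets; dashed lines mark the shares over all 18166 genes, 17.4% higher and 20.7% lower. The bars of epithelial, lipid and natural killer cell groups extend to the right, and those of stromal, hedgehog and proliferation groups to the left.

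Regulators of mesenchyme were mostly lower at day 18. Of 52 mesenchymal transcription factors, 32 fell and 1 rose (Tbx3, 0.39), with a median of -0.68. Twist2, a factor that keeps mesenchymal cells undifferentiated, had signals of 9.49, 9.80 and 9.25 in the day 7 pools and 7.61, 7.85, 7.53 and 7.36 in the day 18 pools. All day 18 pools were below all day 7 pools, and it fell by 1.92 ± 0.13 (adjusted p = 3.01e-08). Its means at days 28 and 60 were 7.63 and 7.33. Plagl1 (-1.65), Runx1t1 (-1.58), Ebf1 (-1.49), Osr2 (-1.25), Zeb1 (-1.20) and Prrx1 (-1.17) followed.

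Matrix assembly genes fell with them. Of 31 enzymes and chaperones of collagen synthesis and crosslinking, 25 fell and 0 rose, with a median of -0.74, and of 16 elastic fibre genes 16 fell, with a median of -1.06; at an unadjusted p under 0.05, 0 and 0 were higher. P4ha3, a collagen prolyl hydroxylase, had signals of 10.02, 9.997 and 9.92 in the day 7 pools and 6.89, 6.72, 7.24 and 6.69 in the day 18 pools. The day 7 pools were close to each other and far above the day 18 pools, and it fell by 3.10 ± 0.16 (adjusted p = 1.56e-09). Loxl1 (-1.53) and Lox (-1.37), which crosslink elastin and collagen, and Fkbp10 (-1.23), a collagen chaperone, fell too. In the elastic fibre, Mfap2, a microfibril protein, read 11.64, 11.61 and 11.51 in the day 7 pools and 9.53, 9.68, 9.37 and 9.49 in the day 18 pools and fell by 2.07 ± 0.11, while Fbn1, fibrillin, fell by 1.36 ± 0.13 and Eln, elastin itself, fell by 0.90 ± 0.14. Of 19 ADAMTS proteases, which process and degrade matrix, 12 fell and 0 rose, led by Adamts1 (-1.22) and Adamts5 (-1.12).

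Cadherins, semaphorins and plexins, of cell adhesion and guidance, fell more often than they rose. Of 55 cadherins and protocadherins, 4 rose (Cdh16, Cdh17, Cdh1 and Pcdh1) and 20 fell. The epithelial Cdh16 had signals of 10.26, 10.21 and 10.22 in the day 7 pools and 11.36, 11.35, 11.30 and 11.32 in the day 18 pools and rose by 1.11 ± 0.066, while Cdh2, the cadherin of nerve and mesenchyme, and Cdh11, of mesenchyme, fell (-1.67 ± 0.17 and -1.41 ± 0.11). Of 23 semaphorins and plexins, 5 rose and 13 fell. The secreted Sema3d (-1.89), Sema3a (-1.47), Sema3c (-1.15), Sema3g (-0.75) and Sema3e (-0.71) were among the falls. The 13 falls also held membrane-bound semaphorins or plexins, which are not named here. The rises were the membrane-bound Sema4a (1.24), Sema7a (0.92), Sema4d (0.58) and Sema4b (0.38) and the secreted Sema3f (0.28). Without day 7 replicate 1, or with arrays centred on the median of all clusters, Sema3f was not called (limma, adjusted p of 0.072 and 0.0664).

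Signalling pathways differed in their counts. Of 19 EGF family genes 5 rose (26.3%) and 2 fell (10.5%), and of 25 retinoic acid pathway genes 4 rose (16%) and 7 fell (28%). Over all genes these shares were 17.4% and 20.7%. In hedgehog signalling, where epithelial ligands act on mesenchymal receptors and Gli factors, 9 of 12 measured genes fell and 1 rose, with a median of -0.90. The one that rose was the ligand Shh, with signals of 9.26, 9.16 and 9.22 in the day 7 pools and 9.57, 9.44, 9.38 and 9.56 in the day 18 pools and a small rise of 0.28 ± 0.088 (adjusted p = 0.0217). That call was lost when any of 4 pools was left out, day 7 replicate 2 or 3 or day 18 replicate 1 or 4 (limma, adjusted p from 0.0528 to 0.0809), with the replicate block (0.0651) and with arrays centred on the median of all clusters (0.106). Gli3 read 8.15, 8.11 and 8.13 in the day 7 pools and 6.42, 6.89, 6.57 and 6.83 in the day 18 pools, with no overlap, and fell by 1.45 ± 0.13, and Gli2 (-1.23), Gli1 (-1.15), Cdon (-0.92), Smo (-0.88) and Hhip (-0.80) fell too. By day 60 the mean of Shh was 6.76.

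In the TGF beta list 12 of 20 fell and 0 rose, with a median of -0.47; 0 were higher at an unadjusted p under 0.05. The ligand Tgfb2 had signals of 8.99, 8.79 and 8.87 in the day 7 pools and 7.04, 6.88, 6.96 and 7.28 in the day 18 pools and fell by 1.84 ± 0.11, and Tgfb3 (-1.10) and the latency proteins Ltbp1 (-1.34) and Ltbp3 (-0.87) fell with it. Of 22 Hippo pathway genes, 16 fell and 3 rose. Ccn1, a target of the pathway and also an immediate early gene, fell by 2.25 ± 0.14, and the large cadherins Fat4 and Dchs1, which bind each other, fell too (-1.64 ± 0.14 and -1.32 ± 0.11). Wwc1 (0.89), Amot (0.84) and Vgll4 (0.28) rose, Vgll4 without a call when arrays were centred on the median of all clusters (limma, adjusted p = 0.0609).

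Of 20 genes of the IGF pathway other than Igf2, 11 fell and 3 rose. Igfbp5, a binding protein, had signals of 12.03, 12.07 and 12.17 in the day 7 pools and 10.03, 10.22, 10.24 and 10.16 in the day 18 pools and fell by 1.92 ± 0.083. The ligand Igf1 fell by 1.09 ± 0.087, from a mean of 10.94 to 9.85, and its later means were 10.51 and 11.69. Stc1 (0.80) and Stc2 (0.59), inhibitors of the pappalysins that cleave binding proteins, rose, and Pappa (-1.21) and Pappa2 (-0.57) fell. Of 31 FGF and ERK feedback genes, 11 fell and 1 rose, the receptor Fgfr2 (0.44).

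The Hox clusters differed in direction. Hox genes set position along the body axis and are expressed along the reproductive tract. Of the 8 Hoxa genes measured 6 fell and 0 rose, of the 7 Hoxc genes 5 and 0, of the 10 Hoxb genes 0 fell and 4 rose, and of the 6 Hoxd genes 1 fell and 1 rose. The medians were -0.48 for Hoxa, -1.03 for Hoxc, 0.24 for Hoxb and -0.05 for Hoxd. Hoxa6 had signals of 9.50, 9.84 and 9.12 in the day 7 pools and 8.07, 8.08, 8.08 and 8.08 in the day 18 pools, with day 18 pools almost alike, and fell by 1.41 ± 0.12. Hoxb7 read 8.36, 8.32 and 8.42 in the day 7 pools and 9.14, 9.003, 9.10 and 9.21 in the day 18 pools and rose by 0.74 ± 0.084, without overlap. Hoxc5 fell by 1.38 ± 0.15, to a day 18 mean of 4.11, under background. The difference between clusters was not tested.

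DNA replication, mitosis and chromatin genes fell by moderate amounts. Of 22 genes of the MCM helicase and replication origins, 13 fell and 0 rose (median -0.44), of 34 kinesins 16 fell and 3 rose, of 41 histone genes 18 and 3, and of 34 chromatin and DNA methylation genes 17 and 3. Mcm10 had signals of 7.90, 8.04 and 8.19 in the day 7 pools and 6.97, 6.82, 6.74 and 6.88 in the day 18 pools and fell by 1.19 ± 0.099. The linker histone H1f5 fell by 1.38 ± 0.11, and Dnmt1, the maintenance DNA methyltransferase, fell by 0.67 ± 0.076; the methyltransferase genes Setd7 (0.69) and Ezh1 (0.42) rose. Histone genes resemble each other closely, and most of their messages lack a poly(A) tail. Of 34 ribosome biogenesis genes, 11 fell (32.4%) and 0 rose, with a median of -0.18. The 1 change of 2-fold was in the polymerase subunit gene Polr1e (-1.07). Over all genes 20.7% fell, and 26.3% of those above background in at least 1 of the 7 pools. At an unadjusted p under 0.05, 0 of the replication genes and 1 of the ribosome biogenesis genes were higher.

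Mitotic genes known to carry the CHR element gave 15 of 18 lower and 0 higher, with a median of -0.61. Their promoters are shown because cell cycle repressor complexes act through this element, TTTGAA, usually next to CCAAT boxes. In RefSeq's promoters (GRCr8), searched on both strands, 9 of 14 members held both motifs, against 6.54% of all 14503 promoters; TTTGAA was in 15.9% and CCAAT in 37.97% of all promoters, with or without the other. The list was made of genes with known elements, so this is a check of the sequences and no finding. Ccnb2, cyclin B2, had signals of 9.42, 9.60 and 9.68 in the day 7 pools and 8.98, 9.05, 9.02 and 9.14 in the day 18 pools and fell by 0.52 ± 0.11. Plk1, a mitotic kinase, read 9.76, 9.89 and 9.86 in the day 7 pools and 8.94, 9.01, 8.80 and 8.997 in the day 18 pools and fell by 0.90 ± 0.11; both sets of pools lay apart. The promoter of Ccnb2 (chr8:79981609-79981908, minus strand) has CCAAT at -134, -101 and -68 and TTTGAA at -214 and -43, and that of Plk1 (chr1:186147408-186147707, plus strand) has CCAAT at -38 and TTTGAA at 6 bases after the start, all in capitals.
Ccnb2: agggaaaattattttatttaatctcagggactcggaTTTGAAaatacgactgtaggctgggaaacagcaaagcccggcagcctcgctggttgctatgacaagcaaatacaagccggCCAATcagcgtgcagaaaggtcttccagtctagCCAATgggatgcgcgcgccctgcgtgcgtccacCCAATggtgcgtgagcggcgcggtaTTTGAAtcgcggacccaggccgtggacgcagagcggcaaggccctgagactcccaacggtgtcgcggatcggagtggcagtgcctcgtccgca
Plk1: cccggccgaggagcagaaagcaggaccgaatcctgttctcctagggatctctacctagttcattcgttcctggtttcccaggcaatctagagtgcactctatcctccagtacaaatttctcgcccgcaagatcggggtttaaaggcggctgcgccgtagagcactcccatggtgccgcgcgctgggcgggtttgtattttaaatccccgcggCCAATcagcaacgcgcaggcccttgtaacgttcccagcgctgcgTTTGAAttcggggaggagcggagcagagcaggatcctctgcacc
In both, the element nearest the start lies downstream of a CCAAT box.

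Several of the 25 largest falls lay outside these lists. Lgals2, a galectin of gut epithelium, had signals of 8.85, 7.77 and 7.80 in the day 7 pools and 4.20, 4.58, 4.89 and 5.07 in the day 18 pools, and Bpifc, of the family of lipid-binding BPI proteins, read 8.24, 7.38 and 7.88 in the day 7 pools and 4.65, 4.65, 4.91 and 4.95 in the day 18 pools. All day 18 pools of both genes were below all day 7 pools, and Lgals2 fell by 3.46 ± 0.24 and Bpifc fell by 3.04 ± 0.17. Vcan, versican, the large proteoglycan of provisional matrix, fell by 2.71 ± 0.17, and Lrrc15, a membrane protein of matrix-forming fibroblasts, fell by 2.42 ± 0.17. Crabp1, a retinoic acid binding protein of embryonic mesenchyme, fell by 2.37 ± 0.18, and Cyp2e1, a xenobiotic oxidase, fell by 2.67 ± 0.22. The imprinted growth genes Dlk1 (-3.04 ± 0.15) and Igf2 (-2.56 ± 0.081) fell; for Igf2 the later means were 7.57 and 6.85, below its day 18 mean of 8.64. For Lgals2 they were 4.52 and 4.68, against 4.69 at day 18.

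Zinc finger genes with the symbol Zfp gave 65 of 242 lower (26.9%) and 18 higher (7.44%), with a median of -0.13. Over all genes 20.7% were lower and 17.4% higher. Among genes above background in at least 1 of the 7 pools, 26.3% were lower and 20.5% higher. Zfp575 stood far from the others, with signals of 9.48, 9.72 and 9.45 in the day 7 pools and 6.54, 6.49, 6.31 and 6.41 in the day 18 pools, tight in both groups, and fell by 3.11 ± 0.10 (adjusted p = 1.35e-11), and it stayed at 6.11 and 6.31 at days 28 and 60. Zfp36, which fell by 2.33 ± 0.12, destabilises messages of early response genes and is counted with those as well. Zfp683, a factor of tissue-resident lymphocytes, had the largest rise, 1.32 ± 0.10.

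Nerve genes as a list were called about as often as all genes. Of 33 measured, 5 rose (15.2%) and 6 fell (18.2%), against 17.4% and 20.7% over all genes, and 10 lay at or under background in all 7 pools, Tubb3 among them. Dcx, doublecortin, a microtubule protein of young migrating neurons, had signals of 8.60, 7.98 and 8.39 in the day 7 pools and 4.54, 5.34, 5.02 and 5.23 in the day 18 pools. It fell by 3.29 ± 0.19 to near background, and at days 28 and 60 its means were 4.20 and 3.80. Npy, neuropeptide Y of sympathetic fibres, fell by 2.31 ± 0.11. The neurofilament genes Nefm and Nefl rose: Nefm read 4.28, 4.41 and 4.60 in the day 7 pools and 5.85, 6.03, 6.66 and 6.05 in the day 18 pools, starting under background, and rose by 1.72 ± 0.16, and Nefl rose by 1.04 ± 0.19. The summed signal of the list was 3090 to 3427 at day 7 and 1630 to 1754 at day 18.

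Schwann cell genes gave 5 of 22 higher and 9 lower. S100b had signals of 8.26, 8.72 and 8.55 in the day 7 pools and 6.46, 6.56, 6.63 and 6.56 in the day 18 pools, with no overlap, and fell by 1.96 ± 0.21; Ncam1 and Ngfr, markers of immature Schwann cells that other cells share, had differences of -1.87 ± 0.12 and -1.45 ± 0.11. The myelin gene Mbp rose by 0.38 ± 0.10, a call that was lost when its clusters were averaged (limma, adjusted p = 0.16), and Egr2, a myelination factor with other roles, by 2.06 ± 0.17. The summed Schwann cell signal was 5139 to 5632 at day 7 and 4059 to 4160 at day 18.

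Immediate early and stress genes, which respond within minutes to stimuli and to handling of tissue, were lower at day 18: 23 of 42 fell and 5 rose. Fos had signals of 10.53, 10.75 and 11.01 in the day 7 pools and 7.01, 6.73, 6.84 and 6.996 in the day 18 pools, and the day 7 pools were all more than 3 log2 units above the day 18 pools. It fell by 3.87 ± 0.15, the largest fall of all genes (adjusted p = 1.05e-10). Dusp1 read 11.21, 11.44 and 11.61 in the day 7 pools and 9.04, 8.96, 9.09 and 9.05 in the day 18 pools and fell by 2.39 ± 0.093, and Egr1 fell by 2.07 ± 0.14. The 5 that rose were Egr2, Gadd45g (1.31), Dusp5 (1.20), Gadd45a (1.05) and Trib1 (0.36). Egr2 had signals of 5.88, 6.22 and 6.65 in the day 7 pools and 8.48, 8.23, 8.58 and 7.93 in the day 18 pools, without overlap, and its means at days 28 and 60 were 8.74 and 9.39. The summed signal of the list was 20076 to 24781 at day 7 and 10347 to 10870 at day 18, and no member lay at background in all pools. It moved with the stromal, growth and chemokine falls, and its part in them was not tested. Of 30 members with a RefSeq promoter, 5 (Dusp5, Egr1, Egr2, Klf6 and Zfp36) held a CArG box, the binding sequence of serum response factor, against 1.37% of all promoters. Of these, Dusp5 and Egr2 were among the rises. The count describes the sequences only, and a part of the motif in the falls was not tested.

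**Figure D4:**
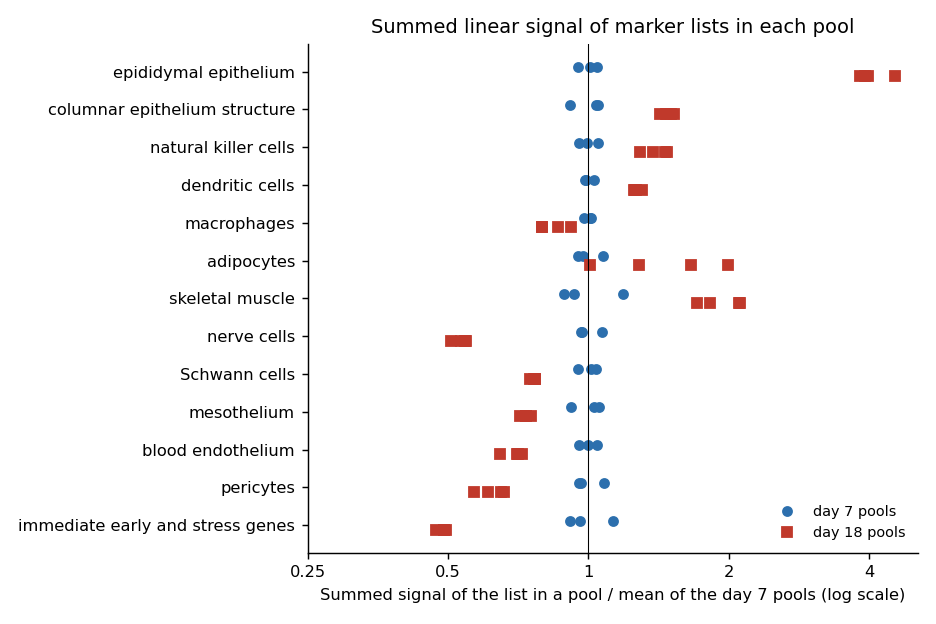
Summed linear signal of marker lists in each pool, divided by the mean of the day 7 pools (log axis); circles are the 3 day 7 pools and squares the 4 day 18 pools. The epididymal epithelium list is highest at day 18, the immediate early, nerve and pericyte lists are the lowest of the 13 lists drawn, and the adipocyte list is the one with widely spread day 18 pools.

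Other tissues in or around the organ moved too. Of 20 mesothelium genes, which mark the outer covering, 14 fell and 4 rose, with a median of -0.75. Upk3b fell by 2.46 ± 0.18, Msln fell by 1.96 ± 0.14 and Lrrn4 fell by 2.60 ± 0.20, whereas the 4 rises were Krt19, Slc39a8, Krt8 and Calb2, of which the keratins are also epithelial. The summed mesothelial signal was 7029 to 8101 at day 7 and 5486 to 5786 at day 18, and Bnc1 and Prg4 lay at or under background throughout. Of 23 blood endothelium genes 13 fell and 3 rose (Gja5, Dll4 and Vwf), and of 12 pericyte genes 9 fell and 0 rose, with Pdgfrb at -1.24; 0 pericyte genes were higher at an unadjusted p under 0.05. The summed endothelial signal was 3338 to 3654 at day 7 and 2262 to 2515 at day 18. That of the pericyte list was 4371 to 4952 at day 7 and 2609 to 3019 at day 18. The part of these markers in the stromal falls was not tested.

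Adipocyte genes gave 12 of 25 higher and 2 lower and differed widely among the day 18 pools. Adipoq, adiponectin, had signals of 4.75, 5.80 and 4.98 in the day 7 pools and 6.74, 7.66, 8.26 and 8.75 in the day 18 pools and rose by 2.68 ± 0.39 (adjusted p = 6.3e-05). Car3, carbonic anhydrase of fat and muscle, read 7.05, 8.37 and 7.22 in the day 7 pools and 9.001, 9.91, 10.59 and 11.07 in the day 18 pools. In both genes replicate 1 was the lowest and replicate 4 the highest of the day 18 pools. The summed list signal was 2719 to 3084 at day 7 and 2895, 3683, 4749 and 5703 in day 18 replicates 1 to 4, and Lep and Ucp1 lay at or under background in all 7 pools. Of 21 skeletal muscle genes 5 rose (23.8%) and 2 fell (9.52%), against 17.4% and 20.7% of all genes. Their rises were led by Tnnc2 (1.74 ± 0.14) and Acta1 (1.51 ± 0.17). The summed signal of the muscle list was 1135 to 1519 at day 7 and 2197 to 2711 at day 18. Of these genes 7, among them the myosins Myh7 and Myh8, lay at or under background throughout.

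The 4 day 18 pools differed most in a few genes. RT1-Bb, a class II gene, had the largest SD, 0.91, because replicate 1 read 8.43 and the others 6.65, 6.69 and 6.53. Car3 and Adipoq came next, with SDs of 0.90 and 0.87. Tatdn3 had an SD of 0.76. Serpina1fl2, Pate10 and Rnase10, secretory genes, had SDs of 0.76, 0.76 and 0.74, with replicate 3 the highest pool for each. At day 28 the means of these secretory genes were 12.71, 11.23 and 10.48, against 7.54, 6.79 and 7.35 at day 18. Among the day 7 pools Car3 (0.72), Mmp7 (0.71) and Fosb (0.69) had the largest SDs.

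Neighbouring genes were called together in places. Of the 18166 genes, 18053 could be placed in RefSeq's GRCr8 gene order. There were 30 runs of at least 4 neighbouring measured genes all called higher (156 genes) and 50 runs all called lower (217 genes), and at 6 or more genes 9 and 4. The longest runs upwards were families of known secretory and immune genes. On chromosome 3, 9 genes from Wfdc2 to Wfdc11 rose, all at least 2-fold, on chromosome 6, 7 serpin genes, and on chromosome 20, 9 genes from Pou5f1 through 8 RT1-CE class I genes. Another run of 9, on chromosome 8, joined genes of different function: Ube4a, the T cell receptor subunits Cd3g, Cd3d and Cd3e, the adhesion genes Mpzl2, Mpzl3 and Jaml, and the sodium channel subunits Scn2b and Scn4b, with a median of 0.59. On chromosome 20 a second run held 6 genes of antigen processing (Tap2, Psmb8, Tap1, Psmb9, RT1-DMb and RT1-DMa), with a median of 0.71. The longest runs downwards had 6 genes, among them a run on chromosome 17 that held the histone genes H1f5 and H2bcl1. No test was made of how many runs gene order alone would give.

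CpG content was described for the promoters of rises and falls. The CpG ratio, observed over expected CpG dinucleotides in the 300-base RefSeq promoter, exceeded 0.6 for 52.7% of 14503 genes, for 55.5% of called rises and for 66.9% of called falls. With faint genes left out the shares were closer: 64.6% for rises with a day 7 mean above background, 69.3% for falls with a day 18 mean above background and 64.5% for genes above background that were not called. Among rises of at least 2-fold it was 44.2% where the day 7 mean lay above background (321 genes). Where that mean lay at or under background (77 genes) it was 6.49%, with a median ratio of 0.19. All 8953 genes not called, faint ones included, gave 47.1%, against the 64.5% without faint ones. Faint genes not called were not counted apart, so the 6.49% cannot be told apart from a trait of faint genes. Falls of at least 2-fold gave 52.3%. These shares are descriptions with no test, and the group of 77 includes gene families that share sequence.

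**Figure D5:**
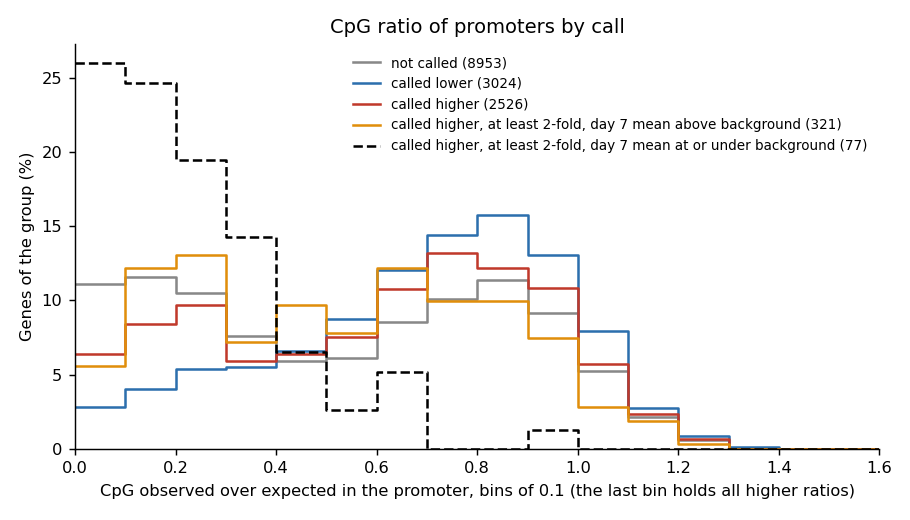
Distribution of the CpG observed over expected ratio in 300-base promoters, as the share of each group of genes in bins of 0.1; numbers of genes are in brackets. The 77 genes that rose at least 2-fold from a day 7 mean at or under background lie mostly at low ratios, while called falls lie mostly at high ratios. Genes not called include faint ones, which are not drawn apart.

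Promoters of both kinds are shown. Those of Vsig1 (chrX:109395268-109395567, plus strand) and Abcb5 (chr6:146075727-146076026, minus strand), both rises from a day 7 mean under background, hold 1 and 2 CpG dinucleotides, marked in capitals, with ratios of 0.086 and 0.20.
Vsig1: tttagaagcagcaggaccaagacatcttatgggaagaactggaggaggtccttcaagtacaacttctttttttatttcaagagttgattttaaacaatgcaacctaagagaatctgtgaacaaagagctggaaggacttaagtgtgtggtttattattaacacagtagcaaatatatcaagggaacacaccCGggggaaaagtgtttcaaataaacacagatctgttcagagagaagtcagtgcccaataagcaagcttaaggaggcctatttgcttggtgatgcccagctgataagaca
Abcb5: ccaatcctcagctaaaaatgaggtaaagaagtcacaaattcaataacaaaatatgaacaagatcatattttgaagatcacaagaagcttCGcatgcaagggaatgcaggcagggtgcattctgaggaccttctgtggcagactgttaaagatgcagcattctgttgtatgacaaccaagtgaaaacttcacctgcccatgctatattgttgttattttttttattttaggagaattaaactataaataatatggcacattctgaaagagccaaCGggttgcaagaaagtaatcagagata
Those of Mfap2 (chr5:158597478-158597777, plus strand) and Gli3 (chr17:54405149-54405448, minus strand), both of which fell, hold 18 and 29, with ratios of 0.54 and 0.80, so that Mfap2 lies under the 0.6 threshold and Gli3 above it.
Mfap2: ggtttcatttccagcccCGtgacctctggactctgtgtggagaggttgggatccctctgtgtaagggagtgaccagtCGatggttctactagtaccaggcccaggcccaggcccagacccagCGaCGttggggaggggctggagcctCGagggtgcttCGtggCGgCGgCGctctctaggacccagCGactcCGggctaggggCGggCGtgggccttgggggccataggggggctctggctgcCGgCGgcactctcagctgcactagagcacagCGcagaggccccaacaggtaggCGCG
Gli3: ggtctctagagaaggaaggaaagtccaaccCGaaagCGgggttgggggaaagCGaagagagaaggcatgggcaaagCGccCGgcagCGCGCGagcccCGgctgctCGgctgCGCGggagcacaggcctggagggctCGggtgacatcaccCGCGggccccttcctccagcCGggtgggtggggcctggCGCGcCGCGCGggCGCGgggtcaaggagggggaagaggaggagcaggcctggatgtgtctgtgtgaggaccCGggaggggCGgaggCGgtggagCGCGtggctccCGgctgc
Abcb5 had signals of 4.10, 4.14 and 4.33 in the day 7 pools and 7.55, 7.79, 8.64 and 7.74 in the day 18 pools, with replicate 3 the highest of the day 18 pools, rose by 3.74 ± 0.19, and reached means of 10.93 and 11.47 at days 28 and 60.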

How the data were processed

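Total RNA of 14 pools of rat epididymides was labelled and read on RatGene 2.0 ST arrays. The authors deposited log2 signals per transcript cluster, made by RMA with the Transcriptome Analysis Console, per the submitters' processing notes; RMA scales and summarises all arrays together, so a shift shared by all genes of an age is not kept. The array's genome build, scan batches and animals per pool are not given in the sources used here. The table has 36685 clusters, of which 18511 had 1 symbol, 575 several and 17599 none in the platform annotation; the single-symbol cluster with the highest mean over the 14 arrays stood for each of 18166 genes (291 genes had several). Limma 3.58.1 in R 4.3.3 fitted a mean per age over the 14 arrays (lmFit, eBayes), tested day 18 minus day 7 two-sided, and adjusted p over all genes by Benjamini-Hochberg at 0.05. No array pair was identical, and array medians were 5.21 to 5.42. The number of arrays limits the precision: the median SE of a difference was 0.11.

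Lists, symbol families and the genes to describe were chosen with earlier results of these data known. Named genes were the 25 largest rises and falls with separate pools (predicted loci passed over), the leading or first members of each list, members of described lists, genes that crossed background, genes of large spread and members of long runs. Gene order and promoters came from RefSeq tables of GRCr8. The fit was tested on simulated data. Alternatives were other scalings, filters, fits, cluster choices, background levels and leaving out each pool. Python 3.11.15 with pandas 2.3.3 made the counts. Protein features were not analysed here.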

Additional observations from a re-analysis of the deposited data

Results flagged for a closer look

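In groups of 4 pools, a pool stood apart from the others of its age where its gap to the nearest pool exceeded Dixon's 95% critical share of the group's range. This was tested in the day 18 pools for 289 named genes and marker lists, and 18 passed. Chance alone passes about 1 in 20 in a set chosen without regard to these values. Some genes, RT1-Bb and Pate10 among them, were named for a large spread in these same pools. The 18 can therefore not be set against that rate. Replicate 1 was the high pool for RT1-Bb (gap ratio 0.917), Krt19 (0.887) and Cxcr6 (0.863), and the low pool for Manba (0.88), Atp6v1a (0.86) and Slc39a8 (0.84). Replicate 2 was the low pool for Cst11 (0.917), Elf3 (0.849) and Vdr (0.835), and for the mean log2 signal of the immediate early and stress genes (0.847). Replicate 3 was the high pool for Pate10 (0.951), Elovl6 (0.837) and Nefl (0.837) and the low pool for Kcnip4 (0.874). Replicate 4 was the high pool for Aldoc (0.883) and Mpzl2 (0.836) and the low pool for Atp6v0b (0.954) and Msln (0.854). RT1-Bb had the widest gap in signal among them: 8.43 in replicate 1 against 6.53 to 6.69 in the others.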

How the results depend on the processing

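Limits: pools of unknown size, no batch information, and a shared scale that centring can shift. The share of calls that were higher was 45.7%, 48.1% with quantile normalization, 51.9% with arrays centred on the tested genes and 38.6% with arrays centred on all clusters, the last chosen after seeing the data; the median difference over all genes was 0.01, -0.01, 0.05 and -0.04. Against a minimum fold of 1.5, 579 genes were higher and 639 lower. Falls of at least 2-fold numbered 365 in the brighter part of the genes (mean signal not under the median) and 920 over every cluster. With background at the 99th percentile 205 genes came up and 182 went down, and at the 90th 40 went down. The share with a CpG ratio over 0.6 was 36.9% and 52.3% for rises and falls of at least 2-fold. Runs of at least 5 genes were 17 higher and 13 lower, and of at least 6, 9 and 4. Leaving out each pool gave 2595 to 3386 higher and 3255 to 3981 lower, and 502 to 541 and 539 to 589 of at least 2-fold. Counts of at least 10 members, for the lists drawn in the plot of groups, were repeated under only some settings. These were quantile normalization, both centrings, the replicate block, day 7 and day 18 pools fitted alone, and leaving out each of those pools. There the counts stayed within 1.5 times. They were not repeated against the minimum fold, or with the filters, other fits, other cluster choices or day 28 and 60 pools left out. The receptor genes, not among these lists, went from 108 higher and 14 lower to 54 and 45 with quantile normalization.

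Replicate numbers did not pair the pools: deviations of same-numbered pools correlated at 0.0011 to 0.0195, and 1 of 3 numbers correlated best with itself. With the replicate block 2969 genes were higher and 3523 lower. Of 270 named genes none with a call changed direction, 92 lost their call against the minimum fold of 1.5, and 9 lost it elsewhere: Adam28, Evpl, Irf7, Mbp, Mertk, Mx2, Sema3f, Shh and Vgll4.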
